A study of Homo sapiens with 15 samples.

Results

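The genes of the enzymes that make, salvage or break down the building blocks of DNA were followed in HCT116, an established human colorectal carcinoma cell line. They are RRM1, RRM2, RRM2B, TYMS, TK1, DTYMK, DUT, DCK and SAMHD1, chosen by symbol, and all 9 were found among the 60664 genes of the deposited table. Cells were exposed for 72 h to an extract of oil production waste products (OPWPs), which came from Apulia (AE), from Tuscany (TE) or from Sicily (SE), to pure hydroxytyrosol (HTyr), an olive phenol, or were left untreated. Each treatment was given at 0.0154 mg/mL. Each of the 5 groups has 3 libraries of polyadenylated RNA that keep strand, so there are 12 treated and 3 untreated libraries. The cells of all groups are of 1 line and carry the same genetic background, and no vehicle control is among the groups analysed here. The labels speak of biological replicates but do not say whether cultures were grown apart, so a p-value below reflects only how much these libraries vary. The column codes for Tuscany and Sicily follow the sample descriptions and the column headings of the study, but the codes in brackets in the sample titles say the opposite. If those brackets were right, every value given here for TE would belong to SE and every value for SE to TE.

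A cell needs a balanced supply of all deoxynucleoside triphosphates (dNTPs) to copy its DNA. Ribonucleotide reductase removes the hydroxyl group that tells a ribonucleotide from a deoxyribonucleotide, and its small subunit RRM2 is made in S phase and destroyed after it. Thymidylate has a route of its own, in which TYMS methylates dUMP, DUT keeps uracil out of DNA by splitting dUTP, TK1 recovers thymidine, and DTYMK adds the second phosphate. DCK salvages other deoxynucleosides, and SAMHD1 breaks dNTPs down again.

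Values are TPM, which express each gene as a share of all transcripts of its library, after correction for length, and sum to the same total in each library, so levels of different genes can be set side by side. Depth per library is not kept in TPM. Tests were run with limma on log2(TPM + 0.5) over 14899 genes, with p-values adjusted by the Benjamini-Hochberg method over all of them. A gene is said to have risen or fallen where the adjusted p was under 0.05 and the fold over 1.5, which is 0.585 on the log2 scale. Log2 fold changes below are on the log2(TPM + 0.5) scale, and where ± follows one it gives the standard error. The letters SE stand for the Sicily extract only. All 9 genes passed the filter of at least 1 TPM in at least 3 libraries, and each was above 1 TPM in all 15 libraries.

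Between 13653 and 14034 genes reached 1 TPM in a library. Mitochondrially encoded genes held 17.0% to 21.5% of TPM in the treated libraries and 15.6% to 18.7% in the untreated ones. Genes of ribosomal proteins held 19.9% to 25.7% in treated and 26.9% to 29.3% in untreated libraries, and the part of that shift in the results was not tested. Of 10 markers of colorectal epithelium, 6 were at or above 1 TPM in every library (EPCAM, CDH1, KRT8, KRT18, KRT19 and CDX2), while CDX1, VIL1 and CEACAM5 were under 1 TPM in all. KRT20, at 0.09 to 1.17 TPM, reached 1 TPM in 2 libraries. The summed level of the 10 was 2308 to 3145 TPM in treated and 4197 to 4243 TPM in untreated libraries, with KRT8, KRT18 and KRT19 making up most of it, and its part in the results was not tested. The markers of fibroblasts (5 of 6), leukocytes (5 of 6) and endothelium (4 of 4) lay under 1 TPM in all libraries, among them COL1A2, PTPRC and CDH5. COL1A1 was the exception among the fibroblast genes, at 4.06 to 8.53 TPM. Among the leukocyte genes, CD68 was the exception and made up nearly all of a summed level of 1.67 to 6.88 TPM in treated and 16.5 to 17.4 TPM in untreated libraries. In a bulk library, fewer cells that transcribe a gene and less of its RNA in each cell cannot be told apart, which holds for every value below.

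To show the DNA from which these transcripts start, 4 stretches of 150 bases just before the most downstream RefSeq start site are printed, for 4 genes of the reductase and thymidylate routes that between them show each of 3 motifs known from promoters of cell cycle genes. Capitals mark the motifs, sequences read 5′ to 3′ on the strand of the gene, and all come from RefSeq on GRCh38.p14.
RRM2 (chr2:10122589-10122738, plus strand): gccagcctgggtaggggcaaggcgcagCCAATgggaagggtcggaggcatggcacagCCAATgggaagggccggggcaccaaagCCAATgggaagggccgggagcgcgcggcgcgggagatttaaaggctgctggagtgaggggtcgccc
TK1 (chr17:78187053-78187202, minus strand): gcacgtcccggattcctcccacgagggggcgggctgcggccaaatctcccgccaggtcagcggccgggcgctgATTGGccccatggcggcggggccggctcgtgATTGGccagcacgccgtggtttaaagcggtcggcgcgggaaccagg
TYMS (chr18:657503-657652, plus strand): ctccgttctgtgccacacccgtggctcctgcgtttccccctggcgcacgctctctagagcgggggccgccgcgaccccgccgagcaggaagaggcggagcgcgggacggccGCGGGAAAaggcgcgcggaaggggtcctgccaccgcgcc
DUT (chr15:48332047-48332196, plus strand): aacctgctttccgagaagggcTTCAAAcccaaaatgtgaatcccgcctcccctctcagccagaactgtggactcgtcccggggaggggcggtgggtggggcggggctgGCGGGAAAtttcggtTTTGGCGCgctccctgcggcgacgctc
The motifs were searched on both strands in the window from 250 bases before to 50 after a start, which was at hand for 8 of the 9 genes. They were the CCAAT box (CCAAT, or ATTGG on the other strand), known to bind NF-Y; 4 words of the E2F site (TTTCCCGC, TTTCGCGC, TTTGCCGC and TTTGGCGC); and the cell cycle homology region, CHR (TTTGAA). RRM2 holds 3 CCAAT boxes, with their first bases at -123, -93 and -66, counted from the start, and TK1 holds 2, at -77 and -46. At least 3 such boxes occur in 3.26% and at least 2 in 10.8% of all 35116 promoter windows of this length, and at least 1 in 34.6%. TYMS has 1 E2F word, at -39. DUT has 2, at -42 and -27, and 2 CHR words further up, of which 1 lies in the stretch printed. An E2F word is found in 3.31% of all windows, 2 or more in 0.145%, a CHR in 15.2% and 2 or more CHR in 2.27%. In the windows not printed, DTYMK and SAMHD1 hold 2 CCAAT boxes each, RRM1 holds 1 CCAAT box and 1 CHR, and DCK has 1 E2F word just after its start. RRM2 and TK1 each have 2 start sites listed, and DUT has 4. The window of the other RRM2 start holds 1 CCAAT box, and those of the other TK1 start and of the 3 other DUT starts hold none of these words. These matches describe letters in the reference genome and were not tested for binding.

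The first genes described are those of ribonucleotide reductase, whose subunits differed. RRM2 rose with every treatment, RRM1 with AE, SE and HTyr, and the alternative small subunit RRM2B with none.

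RRM2, the small subunit that carries the radical needed for the reaction (ENSG00000171848, chr2:10120698-10211725), had 133, 117 and 125 TPM in AE, 96.7, 99.0 and 103 TPM in TE, 203, 216 and 199 TPM in SE and 120.0, 132 and 137 TPM in HTyr libraries, against 34.1, 39.0 and 40.2 TPM in untreated libraries. No treated library came near the untreated range, SE libraries were the highest and TE libraries the lowest of the treated ones. The log2 fold change was 1.71 ± 0.07 with AE (adjusted p = 3.34e-09), 1.39 ± 0.07 with TE (adjusted p = 3.65e-08), 2.43 ± 0.07 with SE (adjusted p = 2.92e-11) and 1.77 ± 0.07 with HTyr (adjusted p = 2.87e-09). These are rises of 3.28, 2.62, 5.40 and 3.40 times for AE, TE, SE and HTyr. In the mean of the 4 treatments, the change of RRM2 was above that of 99.8% of the genes tested.

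RRM1, the large subunit that holds the active site and the sites where dNTPs regulate the enzyme (ENSG00000167325, chr11:4094707-4138932), had 58.9, 56.6 and 62.6 TPM in AE, 51.9, 54.0 and 51.2 TPM in TE, 108, 105 and 113 TPM in SE and 58.9, 58.0 and 64.0 TPM in HTyr libraries, against 35.2, 37.1 and 33.1 TPM in untreated libraries. Again no treated library overlapped the untreated ones, and the 3 SE libraries stood well apart from the other 9 treated ones. RRM1 rose by 0.75 ± 0.06 on the log2 scale with AE (adjusted p = 7.76e-07), by 1.62 ± 0.06 with SE (adjusted p = 2.19e-10) and by 0.77 ± 0.06 with HTyr (adjusted p = 8.31e-07). With TE the log2 fold change of 0.57 ± 0.06 had an adjusted p of 1.36e-05 but lay just under the fold of 1.5. It passed when mitochondrially encoded genes were left out and the rest rescaled (0.61), without TE replicate 3 (0.59) and without untreated replicate 2 (0.61).

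RRM2B, a small subunit induced by p53 that supplies dNTPs outside S phase for repair and for mitochondrial DNA (ENSG00000048392, chromosome 8), had 38.6, 42.0 and 37.0 TPM in AE, 38.0, 37.2 and 37.4 TPM in TE, 42.3, 49.0 and 50.0 TPM in SE and 44.0, 37.4 and 43.9 TPM in HTyr libraries, against 35.6, 36.0 and 36.1 TPM in untreated libraries. All 12 treated libraries lay above the untreated ones, by a small margin in most. The log2 fold change was 0.12 ± 0.08 with AE (adjusted p = 0.232), 0.06 ± 0.08 with TE (adjusted p = 0.566), 0.38 ± 0.08 with SE (adjusted p = 0.000937) and 0.21 ± 0.08 with HTyr (adjusted p = 0.0445). None reached 1.5-fold, and the 95% interval of the SE value was 0.22 to 0.55.

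Ratios within a library do not depend on scaling between libraries, so the balance of the subunit transcripts was compared in this way. The tests of ratios permuted single libraries and pooled the 4 treatments as 1 treated group. They therefore do not speak for each treatment. RRM2 stood at 2.25, 2.07 and 2.00 times RRM1 in AE, 1.86, 1.83 and 2.00 times in TE, 1.88, 2.05 and 1.76 times in SE and 2.04, 2.28 and 2.14 times in HTyr libraries, against 0.970, 1.05 and 1.22 times in untreated libraries. The transcripts of both subunits were thus at about equal levels in untreated cells, and RRM2 was the more abundant in every treated library. The mean log2 ratio was higher by 0.90 in the 12 treated libraries (two-sided exact permutation test, p = 0.0022, the smallest that 455 permutations can give; adjusted over 4 ratios, p = 0.0044). RRM2 stood at 3.44, 2.80 and 3.37 times RRM2B in AE, 2.54, 2.66 and 2.74 times in TE, 4.80, 4.40 and 3.99 times in SE and 2.73, 3.53 and 3.12 times in HTyr libraries, against 0.960, 1.08 and 1.11 times in untreated libraries. The transcripts of the small subunits were at near equal levels in untreated cells, and that of RRM2 was the more abundant in all treated libraries. The log2 difference was 1.64 (exact permutation test, p = 0.0022, adjusted p = 0.0044). Both ratios restate the levels of RRM2, RRM1 and RRM2B given above, so their p-values add no separate support. Protein was not measured in these libraries. The summed transcripts of both small subunits over RRM1, described with no test, averaged 2.77 in AE, 2.62 in TE, 2.33 in SE and 2.85 in HTyr libraries, against 2.10 in untreated libraries. This ratio was lowest of the treated groups in SE, where RRM1 was highest.

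**Figure D1:**
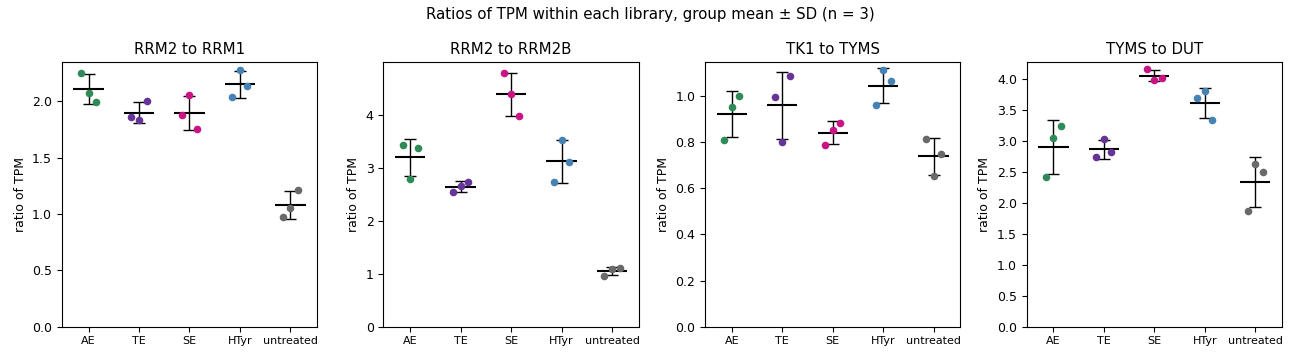
Ratios of TPM between pairs of the enzymes within each library (points), with the mean (line) and SD (bars) of the 3 libraries of AE, TE, SE, HTyr and untreated cells; each vertical axis is a plain ratio and starts at 0. RRM2 to RRM1 runs from 1.76 to 2.28 in treated and from 0.970 to 1.22 in untreated libraries, while the treated and untreated ranges of TK1 to TYMS and of TYMS to DUT overlap.

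The thymidylate route contained the most abundant transcripts of the 9, those of TYMS and TK1. TYMS, TK1 and DTYMK rose with each of the 4 treatments and DUT with AE and SE.

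TYMS, thymidylate synthase and the target of fluorouracil (ENSG00000176890, chr18:657653-673578), had 161, 156 and 172 TPM in AE, 129, 140.4 and 132 TPM in TE, 256, 267 and 270.4 TPM in SE and 139, 156 and 159 TPM in HTyr libraries, against 62.4, 76.6 and 78.3 TPM in untreated libraries. The lowest treated library stood well above the highest untreated one, and the SE libraries above all others. The log2 fold change was 1.17 ± 0.08 with AE (adjusted p = 2.02e-07), 0.89 ± 0.08 with TE (adjusted p = 3.5e-06), 1.87 ± 0.08 with SE (adjusted p = 7.55e-10) and 1.06 ± 0.08 with HTyr (adjusted p = 5.84e-07). ENOSF1, on the opposite strand and overlapping the 3′ end of TYMS, had 20.98 to 46.96 TPM and rose with each treatment as well, by 0.96 in AE, 0.68 in TE, 0.93 in SE and 0.78 in HTyr cells on the log2 scale. No source used here says whether reads were assigned by strand, so reads of the overlapping part may have been shared between both genes. The antisense RNA TYMSOS at the other end of TYMS stayed between 0 and 1.58 TPM.

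TK1, the cytosolic thymidine kinase of dividing cells (ENSG00000167900, chr17:78174091-78187233), had 130.1, 148 and 172 TPM in AE, 128, 112 and 143 TPM in TE, 201, 227 and 239 TPM in SE and 134, 173 and 169 TPM in HTyr libraries, against 50.7, 50.1 and 58.6 TPM in untreated libraries. Libraries of 1 treatment spread more than for TYMS, yet the groups of treated and untreated libraries were far apart. TK1 rose by 1.49 ± 0.13 on the log2 scale with AE (adjusted p = 1.01e-06), by 1.26 ± 0.13 with TE (adjusted p = 7.27e-06), by 2.06 ± 0.13 with SE (adjusted p = 1.42e-08) and by 1.56 ± 0.13 with HTyr (adjusted p = 8.6e-07). After RRM2 it was the gene of the 9 with the largest fold change in each of the 4 comparisons with untreated cells.

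DTYMK, the thymidylate kinase that both routes to dTTP need (ENSG00000168393, chr2:241675747-241686944), had 40.1, 38.8 and 46.6 TPM in AE, 38.0, 40.1 and 40.7 TPM in TE, 42.0, 47.3 and 55.1 TPM in SE and 42.0, 48.0 and 41.3 TPM in HTyr libraries, against 20.6, 20.9 and 23.6 TPM in untreated libraries. The 12 treated libraries lay close together, between 38.0 and 55.1 TPM, and all were above the untreated ones. The log2 fold changes were 0.93 ± 0.10 with AE (adjusted p = 8.63e-06), 0.86 ± 0.10 with TE (adjusted p = 2.78e-05), 1.13 ± 0.10 with SE (adjusted p = 5.62e-07) and 1.00 ± 0.10 with HTyr (adjusted p = 6.17e-06), or between 1.81 and 2.18 times the untreated level.

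DUT, the dUTPase that yields the dUMP used by TYMS (ENSG00000128951, chr15:48331011-48343373), had 66.5, 51.0 and 52.9 TPM in AE, 47.1, 46.1 and 46.7 TPM in TE, 61.6, 67.0 and 67.1 TPM in SE and 37.7, 40.9 and 47.5 TPM in HTyr libraries, against 33.2, 29.2 and 31.2 TPM in untreated libraries. No treated library fell into the untreated range, and the HTyr group was the closest to it. DUT rose by 0.85 ± 0.10 on the log2 scale with AE (adjusted p = 1.85e-05) and by 1.05 ± 0.10 with SE (adjusted p = 1.01e-06). The values of 0.57 ± 0.10 with TE (adjusted p = 0.000607) and 0.42 ± 0.10 with HTyr (adjusted p = 0.00454) were under the fold threshold. The TE value passed it without mitochondrially encoded genes (0.62) and without untreated replicate 1 (0.62). The processed pseudogene DUTP6, which could take reads of DUT, had 0.29 to 2.22 TPM.

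The balance of transcripts within this route was compared in the same way, again from levels already given above. TK1 stood at 0.810, 0.953 and 1.00 times TYMS in AE, 0.994, 0.801 and 1.08 times in TE, 0.785, 0.850 and 0.884 times in SE and 0.959, 1.11 and 1.06 times in HTyr libraries, against 0.813, 0.654 and 0.749 times in untreated libraries. Of the 12 treated libraries, 3 were inside the untreated range, 1 each of AE, TE and SE, and the SE group had the lowest treated mean. The mean log2 ratio was higher by 0.35 in the treated libraries (exact permutation test, p = 0.011, adjusted p = 0.011). That test pooled the treatments, whose mean ratios ran from 0.840 in SE to 1.04 in HTyr, against 0.739 in untreated libraries. Without untreated replicate 2 the difference was 0.26, with an adjusted p of 0.0769 by the same permutation test (range over all alternatives, 0.00824 to 0.0769). TYMS stood at 2.41, 3.05 and 3.25 times DUT in AE, 2.74, 3.04 and 2.82 times in TE, 4.16, 3.99 and 4.03 times in SE and 3.69, 3.81 and 3.35 times in HTyr libraries, against 1.88, 2.62 and 2.51 times in untreated libraries. All treated libraries but 1 of AE were above the untreated range, those of SE and HTyr by the most. The log2 difference was 0.52 (exact permutation test, p = 0.0066, adjusted p = 0.0088), and without untreated replicate 1 it was 0.37 with an adjusted p of 0.0659 by the same permutation test (range over all alternatives, 0.00366 to 0.0659).

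The remaining enzymes, of salvage and of breakdown, were the least abundant of the 9 in untreated cells. Both rose past the threshold with SE, DCK also with AE at its very edge.

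DCK, the kinase that salvages deoxycytidine and activates drugs such as gemcitabine (ENSG00000156136, chr4:70992538-71030914), had 19.0, 30.3 and 24.6 TPM in AE, 20.1, 20.4 and 20.3 TPM in TE, 26.8, 31.0 and 45.8 TPM in SE and 20.2, 19.7 and 23.2 TPM in HTyr libraries, against 16.6, 14.4 and 17.0 TPM in untreated libraries. The untreated libraries were the lowest, but AE and SE libraries spread widely, with SE replicate 3 far above the other libraries. The log2 fold change was 0.59 ± 0.18 with AE (adjusted p = 0.0177), 0.33 ± 0.18 with TE (adjusted p = 0.166), 1.05 ± 0.18 with SE (adjusted p = 0.000211) and 0.38 ± 0.18 with HTyr (adjusted p = 0.105). The standard error is the same for each treatment because the fit pools the spread of all groups, the wide AE and SE groups included. Over all alternatives the adjusted p by limma ran from 0.0207 to 0.358 with TE and from 0.0234 to 0.260 with HTyr. The log2 values stayed under 1.5-fold, at 0.38 or less with TE and 0.45 or less with HTyr. The call with AE was lost without AE replicate 2 (0.43, adjusted p = 0.0843 by limma), without AE replicate 3 (0.58), without untreated replicate 2 (0.51), with a pseudocount of 1 (0.57), under median-ratio scaling (0.50) and under quantile normalization (0.53), and its adjusted p ran from 0.00453 to 0.0843 over all alternatives. With SE the log2 value was 0.83 at the lowest over all alternatives and was called in each. MOB1B, which overlaps DCK on the same strand, had 13.14 to 20.08 TPM, and reads of the shared part could have been split between both.

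SAMHD1, the triphosphohydrolase that degrades dNTPs and so works against the other 8 (ENSG00000101347, chr20:36890229-36951893), had 11.2, 10.4 and 9.62 TPM in AE, 10.4, 10.4 and 10.7 TPM in TE, 14.8, 16.4 and 14.3 TPM in SE and 9.86, 8.24 and 9.95 TPM in HTyr libraries, against 8.40, 8.87 and 8.76 TPM in untreated libraries. It was the least abundant of the 9 in every group. HTyr libraries lay on both sides of the untreated ones, AE and TE libraries just above them and SE libraries clearly above. SAMHD1 rose by 0.77 ± 0.09 on the log2 scale with SE (adjusted p = 5.81e-06). The values with AE (0.25 ± 0.09, adjusted p = 0.0365), TE (0.26 ± 0.09, adjusted p = 0.0319) and HTyr (0.10 ± 0.09, adjusted p = 0.405) did not reach 1.5-fold.

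**Figure D2:**
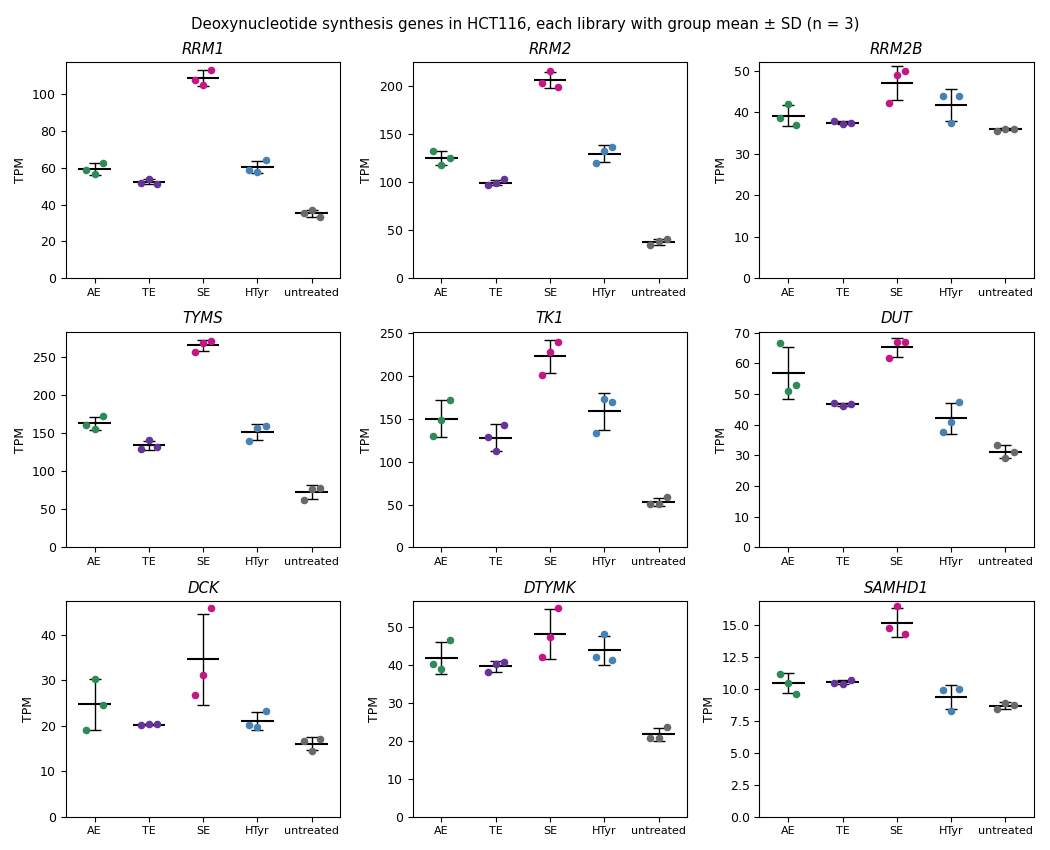
TPM of each of the 9 genes in every library (points) with the mean (line) and SD (bars) of 3 libraries, for AE, TE, SE, HTyr and untreated cells; each vertical axis starts at 0. RRM2 lies between 96.7 and 216 TPM in the treated libraries and at 40.2 TPM or less in the untreated ones, and the SE group has the highest mean in all 9 panels.

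Counted over the 9 genes, 7 rose with AE, where 10.7% of all genes tested did, 4 with TE (7.46% of all genes), 8 with SE (17% of all genes) and 5 in the HTyr group (7.8% of all genes). None fell, beside 5.81% of all genes with AE, 5.26% with TE, 11% under SE and 8.45% under HTyr. In the mean of the 4 treatments 7 rose, against 10.4% of all genes, and RRM2B and SAMHD1 did not reach the fold. DCK was called there at 0.59, again on the edge: leaving out AE replicate 2, SE replicate 3, HTyr replicate 3 or untreated replicate 2 took it under 1.5-fold, to between 0.52 and 0.57, as did a pseudocount of 1 (0.58), median-ratio scaling (0.54) and quantile normalization (0.57). The median log2 fold change of the 9 was 0.85 for AE, 0.57 for TE, 1.13 for SE and 0.77 for HTyr, beside medians of 0.09, 0.05, 0.09 and -0.04 over all genes tested. All 4 comparisons share the same 3 untreated libraries. The libraries did not overlap those of untreated cells for 9 of the 9 genes in AE (30.5% of all genes tested were higher without overlap), 9 in TE (26.7%), 9 in SE (34.3%) and 8 in HTyr (21.7%). For 8 of the 9, all but SAMHD1, each of the 12 treated libraries was above each untreated one, as for 15.3% of all genes. Overlap was read from TPM as deposited and not under other scalings. The margin of RRM2B was small, and its log2 change fell to 0.03 with AE and 0.02 with TE under median-ratio scaling.

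**Figure D3:**
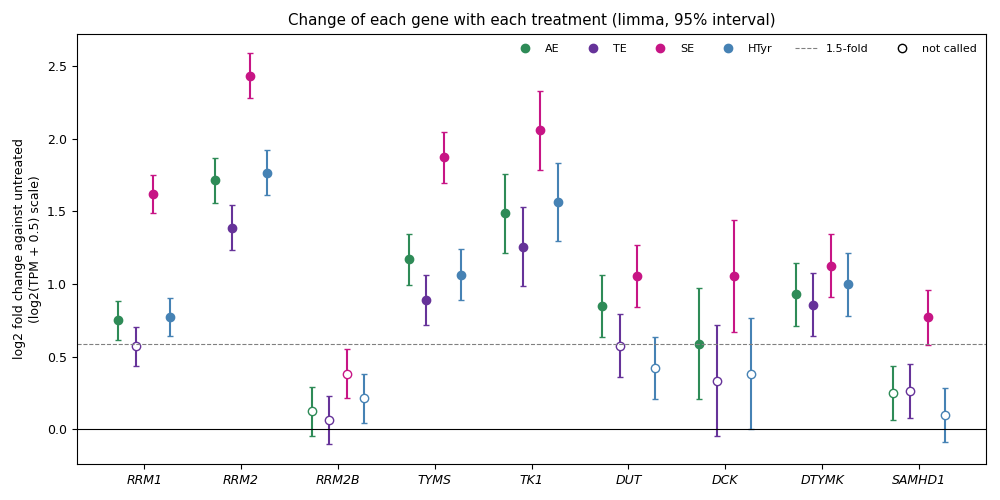
Log2 fold change of each gene with AE, TE, SE and HTyr relative to untreated cells, in log2 units of TPM + 0.5, with 95% intervals from limma; filled points were called, open points were not, and the dashed line marks 1.5-fold. RRM2 is at 2.43 with SE and 1.39 with TE, and RRM2B is under the dashed line with every treatment.

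Set in order of TPM, untreated cells had TYMS at 72.4 ± 8.72, TK1 at 53.1 ± 4.74, RRM2 at 37.8 ± 3.21, RRM2B at 35.9 ± 0.279, RRM1 at 35.1 ± 2.03, DUT at 31.2 ± 2.04, DTYMK at 21.7 ± 1.64, DCK at 16.0 ± 1.43 and SAMHD1 at 8.68 ± 0.246 (mean ± SD, n = 3). The ranges of RRM2, RRM2B and RRM1 overlapped each other, as did those of RRM1 and DUT, while each other neighbour in this order was separate. In SE the order was TYMS at 265 ± 7.31, TK1 at 223 ± 19.3, RRM2 at 206 ± 8.51, RRM1 at 109 ± 4.22, DUT at 65.2 ± 3.13, DTYMK at 48.1 ± 6.56, RRM2B at 47.1 ± 4.19, DCK at 34.5 ± 9.98 and SAMHD1 at 15.2 ± 1.13 (mean ± SD, n = 3). There the ranges of TK1 and RRM2 overlapped, and RRM2B, now the third from the end, overlapped DTYMK and DCK. Summed over the 9 genes, TPM came to 651 to 702 in AE, 560 to 585 in TE, 956 to 1054 in SE and 605 to 695 in HTyr libraries, against 297 to 327 in untreated libraries.

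Leaving out the mitochondrially encoded genes and rescaling, 7 of the 9 rose in AE, 6 in TE, 8 in SE and 5 in HTyr cells. The 2 added with TE are RRM1 and DUT, as described above. Of all 15378 genes tested in this setting, 1801 rose in AE, 1332 in TE, 2779 in SE and 1264 in HTyr cells. As deposited, 1601, 1112, 2532 and 1162 of 14899 did. Median-ratio scaling shifts the median log2 change of all genes by -0.10 for SE against untreated cells, and under it 8 of the 9 rose with SE as before, 6 with AE, 4 with TE and 5 with HTyr. Over all genes the same scaling left 1995 rises and 2063 falls with SE, where 2532 and 1636 were called as deposited, and 1199 and 1161 with AE, where 1601 and 865 were called. With TE it left 967 and 925, where 1112 and 784 were called, and with HTyr 1280 and 1148, where 1162 and 1259 were.

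Treatments were then compared with each other. Among the 3 extracts and HTyr at the same mass per volume, SE had the highest levels, and differences among AE, TE and HTyr did not pass both thresholds for any of the 9 genes.

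Against HTyr, 6 of the 9 were called higher in SE, where 4.97% of all genes were: RRM1 (0.85 ± 0.06, adjusted p = 8.98e-07), TYMS (0.81 ± 0.08, adjusted p = 1.25e-05), RRM2 (0.67 ± 0.07, adjusted p = 2.19e-05), SAMHD1 (0.67 ± 0.09, adjusted p = 9.88e-05), DCK (0.67 ± 0.18, adjusted p = 0.0123) and DUT (0.63 ± 0.10, adjusted p = 0.00041). This comparison depends on how libraries are scaled. Median-ratio scaling shifts the median log2 change of all genes by -0.13, and under it, and also under quantile normalization, RRM1 and TYMS were still called and RRM2, DUT, DCK and SAMHD1 were under 1.5-fold, at 0.46 to 0.54. The call of DCK was also lost without SE replicate 3 (0.45) and that of DUT without HTyr replicate 1 (0.56). DTYMK differed by 0.13, with a 95% interval of -0.09 to 0.35, and turned slightly negative under both of these scalings. Of all genes, 741 were higher and 355 lower in SE than in HTyr as deposited. Under median-ratio scaling 322 and 562 were, and under quantile normalization 350 and 511.

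Against TE, 5 of the 9 were called higher in SE, beside 4.7% of all genes: RRM1 (1.05 ± 0.06, adjusted p = 1e-07), RRM2 (1.05 ± 0.07, adjusted p = 3.36e-07), TYMS (0.98 ± 0.08, adjusted p = 1.7e-06), TK1 (0.80 ± 0.13, adjusted p = 0.000365) and DCK (0.72 ± 0.18, adjusted p = 0.00853). DCK lost its call without SE replicate 3 (0.50). For all 9 genes, the 3 SE libraries were above the 3 TE libraries, as they were for 25.9% of all genes tested. Against AE, 3 were called higher in SE, beside 1.94% of all genes: RRM1 (0.87 ± 0.06, adjusted p = 7.61e-07), RRM2 (0.72 ± 0.07, adjusted p = 1.31e-05) and TYMS (0.70 ± 0.08, adjusted p = 5.02e-05). Without SE replicate 1 the count was 5, TK1 and DCK being added, where 295 of 14899 genes were higher in SE than in AE. The SE group is common to these comparisons. Over all genes, 700 were higher and 546 lower in SE than in TE as deposited, and 509 and 668 under median-ratio scaling.

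Between AE and HTyr no gene of the 9 was called, beside 1.34% of all genes in either direction. The largest difference was that of DUT, 0.43 ± 0.10 (adjusted p = 0.0211, 95% interval 0.21 to 0.64), under 1.5-fold. For RRM2 the difference was -0.05 with an interval of -0.21 to 0.10, and for RRM1 -0.02 with -0.15 to 0.11. Between TE and HTyr none was called either, beside 0.705% of all genes, and the largest difference was that of RRM2 at -0.38 ± 0.07 (adjusted p = 0.0148, interval -0.53 to -0.23). Between AE and TE, with 0.0873% of all genes called, the 9 genes gave values from -0.02 for SAMHD1 to 0.33 for RRM2 (adjusted p = 0.0889, interval 0.17 to 0.48). At an unadjusted p under 0.05 and with no fold threshold, 1 of the 9 differed between AE and HTyr, 4 between TE and HTyr and 4 between AE and TE by limma. How many of all genes passed this looser rule was not counted, so these counts stand without a background. The intervals of DUT and DCK between AE and HTyr reach past 1.5-fold, so the lack of calls does not show that the treatments act alike. Among all genes, median-ratio scaling left 34 higher and 83 lower in AE than in HTyr (134 and 66 as deposited), 31 and 56 in TE than in HTyr (66 and 39) and 6 and 7 in AE than in TE (8 and 5).

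The other genes of nucleotide metabolism were read from lists, in the mean of the 4 treatments, where 10.4% of all genes rose and 7.43% fell. Of 10 genes of the folate cycle, which provides the methyl group for TYMS, 4 rose and none fell, with a median of 0.39. SHMT1, which loads folate with its carbon unit in the cytosol, rose by 1.46 ± 0.10 (adjusted p = 8.04e-08) and GGH, which trims folate polyglutamates, by 1.02 ± 0.09 (adjusted p = 5.43e-07). FPGS, which adds the glutamates, had 0.43 ± 0.06 and was not called.

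The routes that make ribonucleotides were read in the same way. Of 5 genes of pyrimidine synthesis, 1 rose (UMPS, 0.59 ± 0.17, adjusted p = 0.0115), and CTPS1, CAD and CTPS2 were at 0.49 ± 0.05, 0.29 ± 0.05 and 0.09 ± 0.08. Of 13 genes of purine synthesis, 1 rose (PAICS, 0.68 ± 0.05, adjusted p = 1.27e-07), while ADSL, PRPS2 and PRPS1 were at 0.31 ± 0.03, 0.33 ± 0.05 and 0.40 ± 0.07. Of 17 other nucleotide and nucleoside kinases, 1 rose (UCK1, 0.61 ± 0.12, adjusted p = 0.00113), and NME1, NME4 and ADK were at 0.57 ± 0.04, 0.46 ± 0.06 and -0.33 ± 0.05. Their medians were 0.29, 0.26 and 0.19, and none of these genes fell. Counts of 1 in 5, 1 in 13 and 1 in 17 are near the background of 10.4%.

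The mitochondrial supply of deoxynucleotides, which runs on its own kinases, was without a call among 5 genes (median -0.11). TK2, the mitochondrial thymidine kinase, was at -0.31 ± 0.13 (adjusted p = 0.0581), DGUOK, the deoxyguanosine kinase, at 0.08 ± 0.08, and the carriers SLC25A36 and SLC25A33 at -0.11 ± 0.08 and -0.13 ± 0.12. By limma at an unadjusted p under 0.05, 1 of the 5 passed, and the share of all genes that did was not counted. TK1 and TK2, which carry out the same reaction in cytosol and mitochondria, thus had log2 changes of 1.59 and -0.31 in these cells.

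Among 13 tested genes of nucleotide breakdown, deamination and pool cleaning, 2 rose and 2 fell (median 0.17). UPP1, a uridine phosphorylase, averaged 65.6 TPM in AE, 62.2 in TE, 18.8 in SE and 77.6 in HTyr cells, against 111 TPM in untreated cells, and fell (-1.16 ± 0.09, adjusted p = 1.99e-07). NT5C2, a nucleotidase, fell by a smaller amount (-0.72 ± 0.05, adjusted p = 1.74e-07), and NUDT1, which removes oxidized purine nucleotides, rose (0.92 ± 0.11, adjusted p = 9.01e-06). Of 5 thioredoxin, glutaredoxin and related genes, listed for the electron supply of ribonucleotide reductase, 2 rose. They were thioredoxin (TXN, 0.69 ± 0.08, adjusted p = 7.06e-06) and GLRX2 (0.60 ± 0.09, adjusted p = 8.42e-05), while GSR and GLRX were at 0.36 ± 0.04 and -0.32 ± 0.08. Whether each of the 5 serves the reductase in these cells was not tested. Of 5 nucleoside transporters 2 were measured above the filter, SLC29A1 at 0.28 ± 0.05 and SLC29A2 at 0.24 ± 0.06, and neither was called.

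The listed genes of DNA replication all rose. Of 21 genes of the replication fork and of origin licensing, 21 rose in the mean of the 4 treatments, with a median of 1.11. Each of the 21 was also called with AE and with SE, and 17 with TE and with HTyr, at medians of 1.06 for AE, 0.89 for TE, 1.64 for SE and 0.89 for HTyr. FEN1, the flap endonuclease, averaged 77.8 TPM in AE, 73.3 in TE, 122 in SE and 71.3 in HTyr cells, against 25.3 TPM in untreated cells. The helicase genes GINS2, MCM2 and MCM3 rose by 1.51 ± 0.06, 1.32 ± 0.05 and 1.05 ± 0.04 on the log2 scale. Among 5 known regulators of the enzymes, 3 rose: CCNF, the cyclin that directs RRM2 to destruction (1.18 ± 0.06, adjusted p = 6.99e-09), E2F1, a transcription factor of S-phase genes (1.05 ± 0.06, adjusted p = 1.92e-08), and CHEK1, a kinase of the replication checkpoint (1.09 ± 0.08, adjusted p = 1.21e-07). ATR, the kinase upstream of CHEK1, was at 0.15 ± 0.09 and was not called.

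Since RRM2B is a p53 target, 18 tested genes induced by p53 were read beside it, of which 3 rose and 4 fell (median -0.02). GADD45A, a stress sensor, fell (-0.92 ± 0.05, adjusted p = 9.49e-09), as did the death receptor TNFRSF10B (-0.82 ± 0.05, adjusted p = 2.7e-08) and the kinase PLK3 (-0.73 ± 0.07, adjusted p = 1.06e-06). TP53I3 rose (1.01 ± 0.08, adjusted p = 3.06e-07), and so did the death receptor FAS (1.01 ± 0.12, adjusted p = 1.12e-05) and the death effector BAX (0.64 ± 0.09, adjusted p = 3.05e-05). The list went in both directions, with RRM2B between its ends.

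**Figure D4:**
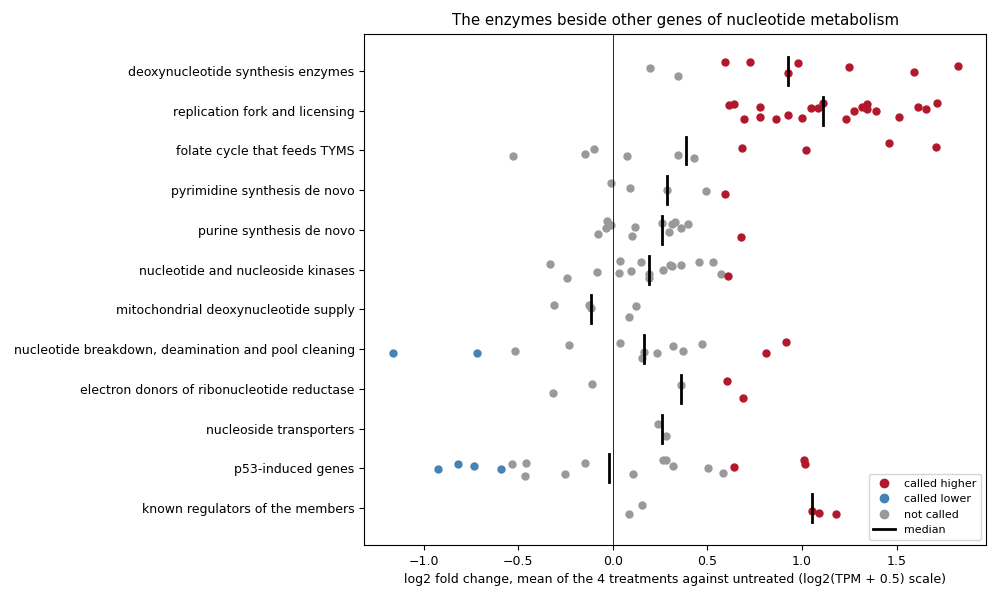
Log2 fold change in the mean of the 4 treatments relative to untreated cells, in log2 units of TPM + 0.5, 1 point per tested gene and 1 row per list, with the median as a bar; red points were called higher, blue points lower and grey points were not called. The 21 replication genes are all red with a median of 1.11, and the 5 genes of mitochondrial supply are all grey with a median of -0.11.

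Over the 15 libraries, which fall into 5 groups so that group differences drive any correlation, the log2 levels of RRM2 and TK1 were the most alike of the 36 pairs (Pearson r = 0.981), followed by RRM2 and TYMS (0.979), RRM1 and TYMS (0.969) and TK1 and DTYMK (0.966). The least alike were DTYMK and SAMHD1 (0.560), then RRM2B and DTYMK (0.622). Among 10380 genes with a mean of at least 5 TPM, those most like RRM2 were TUBA1B, an alpha tubulin (r = 0.993), CCNF (0.993) and CCNB1, the mitotic cyclin B1 (0.992). RRM1 was closest to ERCC6L (0.992), PSMB2 (0.991) and HSP90AB1 (0.989), TYMS to VRK1 (0.991), CKS2 (0.991) and FABP5 (0.990), and TK1 to SNRPB (0.991), COMMD4 (0.990) and CCNF (0.990). DUT was closest to TRNT1 (0.981), ABCC2 (0.964) and LRP8 (0.962), and DTYMK to H3-3A (0.977), C19orf48P (0.974) and CENPM (0.972). SAMHD1 was closest to HMGCS1 (0.987), SASS6 (0.979) and FTSJ3 (0.965). The patterns of RRM2B and DCK had no neighbour as close, the best being ELOC (0.935), ESD (0.913) and MDH1 (0.902) for RRM2B and POLR2G (0.936), MRPS23 (0.925) and SDHAF2 (0.920) for DCK.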

How the data were processed

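HCT116 cells were sequenced in 15 libraries of 5 groups, assigned from the sample labels. The authors trimmed reads with Scythe and Sickle, used STAR on GRCh38 for alignment and RSEM with Ensembl 104 for quantification. The STAR and RSEM versions were not given in the sources used here. Values as deposited are TPM, made by the authors for each library, rounded to 2 decimals and not scaled between libraries. The study gives an average depth but not that of each library, and TPM are not counts. For this reason no count model and no counting error are given.

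Values were analysed as log2(TPM + 0.5) in 1 model of 5 group means with limma 3.58.1 (R 4.3.3), with its mean-variance trend. The spread of a gene is pooled over the 5 groups, so its standard error is the same in every comparison between single groups. Genes entered it with 1 TPM or more in 3 or more libraries, which kept 14899 and left out 45765. Ratios were compared with exact permutation tests (numpy 2.4.6, Python 3.11.15). Symbols and coordinates are those of GENCODE 44, which named 60463 of 60664 identifiers. The genes followed and the 11 lists were chosen with earlier results of these data known. From each list the text names the 4 genes of smallest adjusted p in the mean over treatments, plus no more than 3 called genes opposite in sign to its median, and for each enzyme its 3 closest genes over the libraries and any expressed gene or pseudogene that shares its locus or sequence. Of the genes this rule picks from the lists, 2 are not reported here. On data simulated for SE against untreated cells, with 200 of 14899 genes changed, 47.5% of genes were called at a log2 change of 0.7, 82.5% at 1, 100% at 2, 82.5% at -1 and 92.5% at -2, with 3 false calls. The simulation changed genes in SE only, with independent normal noise. In the data 28% of genes were called with SE, so these rates need not hold there.

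Alternatives were pseudocounts of 0.1 and 1, no filter or a stricter one (mean of 5 TPM or more), scaling by median ratios, quantile normalization, leaving out mitochondrially encoded genes, no trend, fits of only the groups compared, the replicate number as a block, and leaving out 1 library at a time.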

Additional observations from a re-analysis of the deposited data

How the results depend on the processing

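TPM carry no depth, so precision rests on the spread among the 3 libraries of a group, pooled for each gene over all 5 groups. Genes near 1.5-fold (DCK with AE, RRM1 and DUT with TE) change sides with small changes of method. Counts of the enzymes called against untreated cells kept within 1.5 times in 124 of 124 alternatives, and those between treatments in 147 of 150. The exceptions are SE against HTyr, with 2 under median-ratio scaling and 2 under quantile normalization instead of 6, and SE against AE, with 3 to 5 when 1 library was left out. Of all genes, 322 and 350 were higher in SE than in HTyr under these scalings, in that order, against 741 as deposited. Of single log2 changes against untreated cells, 1098 of 1116 kept direction and call, 13 lost the call, 5 gained it and none reversed. Between treatments 1325 of 1350 did, 11 lost it, 4 gained it and 10 uncalled values near 0 reversed.

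The reversed values were those of TYMS between AE and HTyr (-0.0178) and DTYMK between SE and HTyr (-0.00797) under median-ratio scaling, and of DTYMK between SE and HTyr under quantile normalization (-0.0134). With 1 library left out, values between AE and HTyr ran from -0.195 to 0.0221 for TK1, from -0.0608 to 0.0217 for RRM1 and from -0.145 to 0.00132 for DTYMK. Likewise, DCK ran from -0.0930 to 0.0237 between TE and HTyr, and between AE and TE DTYMK ran from -0.00427 to 0.126 and SAMHD1 from -0.0653 to 0.0381. The log2 difference of TK1 to TYMS ran from 0.26 to 0.42 and that of TYMS to DUT from 0.37 to 0.61, and their calls were lost without untreated replicate 2 and 1. The cause of these changes was not tested beyond the libraries left out.

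Over all genes, the mean of the 4 treatments gave 1768 calls with a mean of at least 5 TPM, against 2661, since fewer genes were tested. AE against HTyr gave 126 calls with that filter, 117 under median-ratio scaling, 106 under quantile normalization and 80 with only the groups compared, against 200. TE against HTyr gave 63 with no filter and 39 with only the groups compared, against 105, and AE against TE 7 and 3, against 13. With 1 library left out, AE against HTyr gave 92 without AE replicate 1 and 74 without HTyr replicate 2, TE against HTyr 54 to 56 without any 1 TE library and 63 without HTyr replicate 3, and AE against TE 4 to 8 without any 1 AE or TE library. A fit of only the groups compared was not run for the mean of the 4 treatments, which needs all groups.

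Replicate numbers did not pair the libraries: of 30 pairs with the same number, correlations of deviations from the group means ran from -0.21 to 0.26, 3 were over 0.1, and 4 of 15 libraries correlated best with their own number. With a block for the replicate number, 7 of the 9 enzymes were called higher in AE, 4 in TE, 8 in SE and 5 in HTyr cells. Of all 14899 genes, 1588 rose in AE, 1101 in TE, 2534 in SE and 1154 in HTyr cells in this setting. The counts of the enzymes were the same without the block, and no call of an enzyme or a ratio changed.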
